A study of Mus musculus with 15 samples.

Results

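The 17-day embryo was compared with the 15-day embryo by its mature microRNAs (miRNAs). These are 2 of 15 mouse small RNA libraries, each from a different tissue or stage, and they were chosen by the day in the sample title. The 17-day embryo gave 2625149 counted reads and the 15-day embryo 2135464. For the 17-day library the labels contradict each other, because its title names day 17 and its source field names day 15. The title was used, and the values in the files do not settle which entry is right. The labels give the species and the stage only, with no strain, genotype, sex or treatment, and describe both samples as total RNA of embryos from a commercial tissue panel (Takara), without the number of animals.

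Of 1558 miRNA names counted anywhere in the series, 1233 had a read in at least 1 of the 2 embryos. The comparison was made for the 491 names with at least 100 reads summed over both. Arm usage was compared for 305 of the 615 hairpins with both arms named, those with at least 20 reads in each embryo. Each stage is 1 library, so no difference between stages has a replicate check and none was tested. A miRNA is called higher or lower here when its share of all counted reads in the 17-day embryo was at least 2 times, or at most 0.5 times, its share in the 15-day embryo. Levels are given as a percent of counted reads or as RPM, reads per 1000000 counted reads. The 95% intervals cover counting error and no other, and PCR makes reads that are not independent of each other.

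A miRNA gene is transcribed as a longer RNA that folds into a hairpin, and the hairpin is cut into a duplex of a 5p and a 3p strand, 1 from each arm. One strand, and for some hairpins either, is loaded into an Argonaute protein and lowers the translation and stability of messenger RNAs that pair with its seed, bases 2 to 8 from the 5′ end. Many miRNAs are made mainly in a single tissue, so the miRNAs of an embryo reflect which tissues it contains. The libraries were made by AQ-seq, which ligates adapters with randomized ends to lower the preference of the ligase for particular sequences.

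The sequences below are those on which the results turn, written 5′ to 3′ with the seed in capitals, from RefSeq (build GRCm38.p6). The first set holds miRNAs of the intestinal epithelium, some of them also of liver or kidney, that were higher in the 17-day embryo, of which miR-192-5p and miR-215-5p share a seed, and miR-673-5p, which stood apart from its cluster.
miR-215-5p: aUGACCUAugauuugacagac
miR-192-5p: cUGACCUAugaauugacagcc
miR-194-5p: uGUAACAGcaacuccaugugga
miR-802-5p: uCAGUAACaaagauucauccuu
miR-673-5p: cUCACAGCucugguccuuggag
Counted from 1 at the 5′ end, miR-192-5p and miR-215-5p differ by the substitutions C1A, A12U and C20A, all outside the seed, with the base of miR-192-5p given first.

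The second set is the let-7 family, shown because its 9 members share the seed GAGGUAG and all had smaller shares in the 17-day than in the 15-day embryo, by different amounts.
let-7a-5p: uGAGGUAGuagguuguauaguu
let-7b-5p: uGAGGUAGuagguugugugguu
let-7c-5p: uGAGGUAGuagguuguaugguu
let-7d-5p: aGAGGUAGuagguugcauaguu
let-7e-5p: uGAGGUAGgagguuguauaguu
let-7f-5p: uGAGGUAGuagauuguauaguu
let-7g-5p: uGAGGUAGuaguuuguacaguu
let-7i-5p: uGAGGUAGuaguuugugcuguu
miR-98-5p: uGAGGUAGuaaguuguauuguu
Against let-7a-5p, let-7e-5p differs only by U9G, let-7f-5p only by G12A and let-7c-5p only by A19G.

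The third set holds tissue miRNAs of muscle (miR-133b-3p, miR-206-3p), stratified epithelium (miR-203-3p), red blood cells (miR-451a), brain (miR-9-5p) and trunk (miR-196a-5p).
miR-133b-3p: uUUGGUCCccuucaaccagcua
miR-206-3p: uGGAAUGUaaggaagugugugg
miR-203-3p: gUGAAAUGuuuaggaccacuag
miR-451a: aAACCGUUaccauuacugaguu
miR-9-5p: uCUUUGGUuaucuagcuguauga
miR-196a-5p: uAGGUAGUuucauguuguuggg

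The fourth set holds both arms of the 2 hairpins with the largest well-counted shifts of arm usage, with miR-299b-5p, whose hairpin lies on the opposite strand within that of miR-299a.
miR-299a-5p: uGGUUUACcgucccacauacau
miR-299a-3p: uAUGUGGGacgguaaaccgcuu
miR-299b-5p: gGUUUACCgucccacauacau
miR-154-5p: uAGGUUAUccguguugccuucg
miR-154-3p: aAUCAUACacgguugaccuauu

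The miRNAs of the 2 embryos were alike for most names. Of the 491 names, 449 (91.4%) had shares within 2-fold of each other, and the median absolute log2 ratio of the 17-day to the 15-day embryo was 0.34. In the 17-day embryo 22 names were higher (4.48% of the 491) and 20 were lower (4.07%). The central 50% of all log2 ratios lay between −0.28 and 0.40, and the central 90% between −0.88 and 0.96. The step before it, which by the titles covers more days, was larger. The same rule called 32.3% of 486 names between the 15-day and the 11-day embryo, against 8.55% between the 17-day and the 15-day embryo. These comparisons share the 15-day library, and the 11-day library is smaller, with 1505072 reads, so they are set side by side only. The 22 higher names held 4.68% of the reads of the 17-day embryo and 1.93% of those of the 15-day embryo. The 20 lower names held 5.77% of the reads of the 17-day embryo and 12.5% of those of the 15-day embryo.

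**Figure D1:**
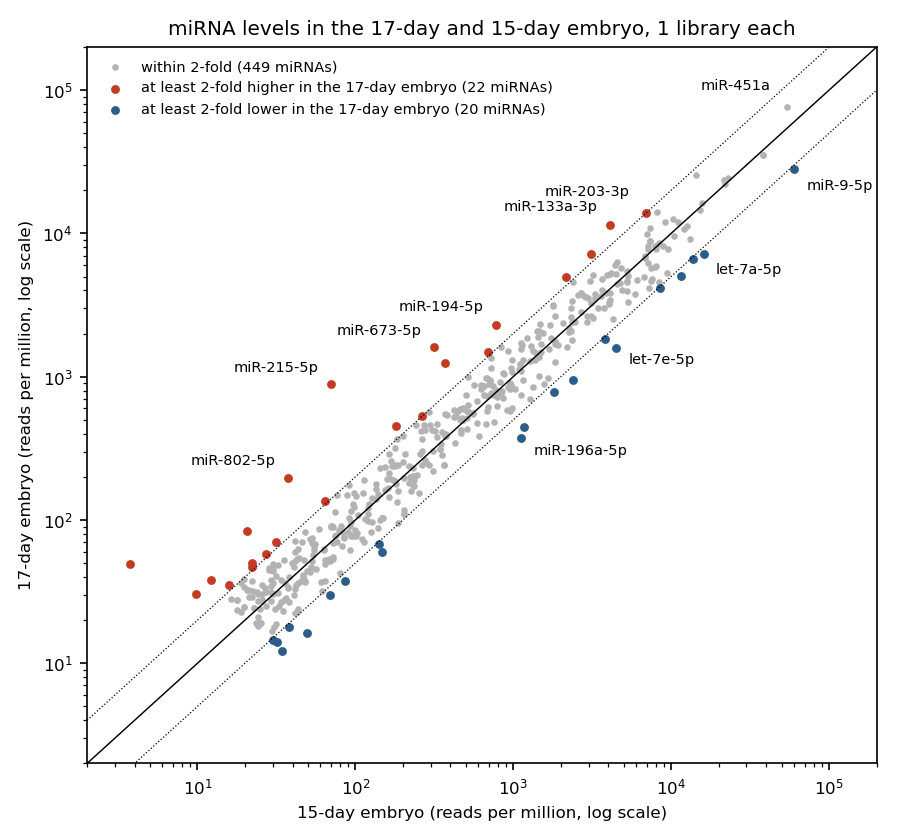
RPM of the 491 miRNAs in the 17-day embryo (vertical) against the 15-day embryo (horizontal), both on log scales, 1 library each; the solid line marks equal shares and the dotted lines 2-fold. The 22 higher names (red) include miR-215-5p, miR-802-5p and miR-673-5p far above the line, and the 20 lower names (blue) include the abundant miR-9-5p and let-7a-5p.

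Names without a read in 1 embryo were rare species throughout. The 170 names found in the 17-day embryo alone had at most 6 reads each, and the 107 found in the 15-day embryo alone at most 5. At this depth no name above those counts was present at 1 stage and missing at the other. The 742 names below the minimum together held 0.230% of the reads of the 17-day embryo and 0.227% of those of the 15-day embryo. The miRNAs by which these embryos were to be recognised, miR-451a, miR-122-5p and miR-673-5p, had at least 669 reads each in both. Of these, miR-451a was higher in the lung and spleen libraries (102603 and 82291 RPM) than in either embryo. miR-122-5p was higher in the liver library (311546 RPM) than in either embryo. miR-673-5p, at 1611 RPM in the 17-day embryo and 313 RPM in the 15-day embryo, exceeded in both its highest level in the 12 tissue libraries, 106 RPM. Across all 15 libraries the totals ran from 148052 to 3161463 reads.

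Base composition moved with the ratio and is given here because it touches many of the results. Over the 413 of the 491 names (84.1%) with a sequence in the table, the log2 ratio had a Pearson r of 0.34 and a Spearman rho of 0.42 with GC content, as a description across miRNAs that share the same 2 libraries. The median log2 ratio was −0.35 for the 41 names with a GC content of at most 35%, and 0.34 for the 55 names above 60%. A straight line gave 0.20 log2 units per 10 points of GC. Among the other 104 pairs of libraries of the series the absolute r reached at most 0.293, with a median of 0.083, but 65 of those pairs had a steeper line. The 11-day embryo over the 15-day embryo gave an r of 0.19, and the 11-day embryo over the 17-day embryo 0.03. After this line was subtracted, a step chosen after the data were seen, 18 of the 413 names were higher (4.36%) and 6 were lower (1.45%). Of the 16 higher names with a sequence 15 kept their call, and of the 17 lower names 6 did. Whether composition plays a part in these ratios was not tested, and GC-adjusted values are given below beside the results they move.

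**Figure D2:**
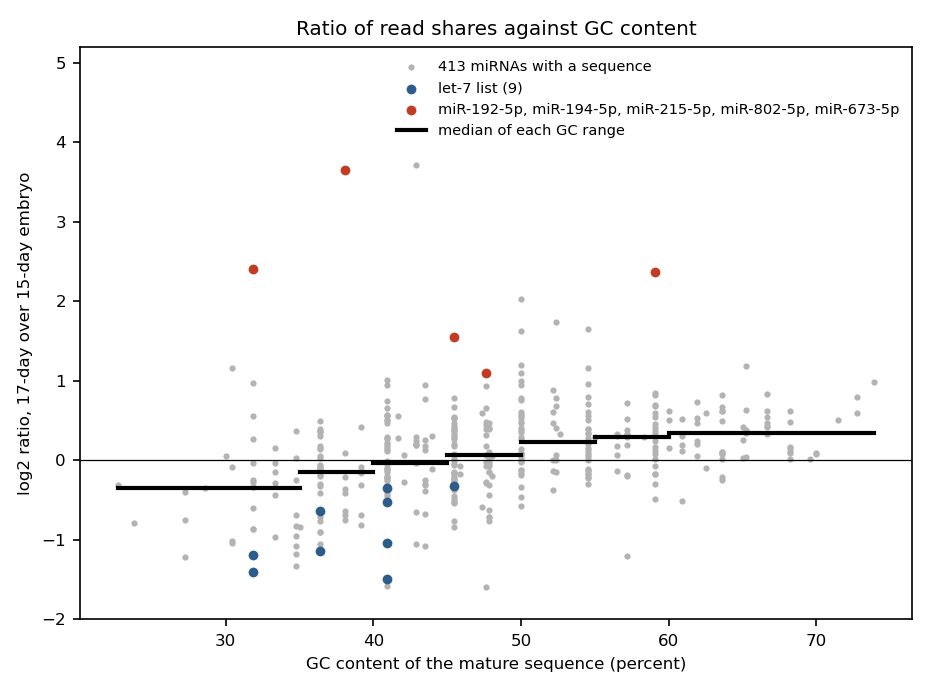
Log2 ratio of read shares, 17-day over 15-day embryo (vertical), against the GC content of the mature sequence in percent (horizontal) for 413 miRNAs, with the median of each GC range as a black bar. The medians climb from −0.35 at low GC to 0.34 at high GC; the let-7 list (blue) lies below its ranges' medians, and miR-215-5p and miR-802-5p (red) lie far above theirs.

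The miRNAs of the intestinal epithelium stood out most. miR-215-5p, miR-194-5p and miR-192-5p, which are made in gut epithelium, were all higher in the 17-day embryo, 3 of 3 names of the gut and kidney list where 4.48% of all names were. The lists, here and below, were chosen with earlier results of these data known. These 3 names also come from a pair of loci and are not independent of each other, so the count is a description only. miR-215-5p had 882 RPM (2316 reads) in the 17-day embryo and 70.2 RPM (150 reads) in the 15-day embryo, after 20.6 RPM in the 11-day embryo. That is 12.6-fold, a log2 ratio of 3.65 with an interval of 3.41 to 3.90. In bulk RNA of embryos, more cells of a type and more RNA per cell cannot be told apart, here and for all results below.

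miR-194-5p had 2289 RPM in the 17-day embryo and 783 RPM in the 15-day embryo, a log2 ratio of 1.55 (1.47 to 1.63). miR-192-5p had 1480 RPM in the 17-day embryo and 690 RPM in the 15-day embryo, a log2 ratio of 1.10 (1.01 to 1.19). The 3 miRNAs thus differed in the size of their ratios, with intervals that do not overlap. They come from a pair of loci, each of which holds a miR-194 hairpin of the same mature sequence. Mir194-1 (chr1:185313319-185313385) and Mir215 (chr1:185313581-185313692) lie on the plus strand of chromosome 1, inside the noncoding gene 2010103J01Rik and antisense to an intron of Iars2. Mir194-2 (chr19:6264643-6264728) and Mir192 (chr19:6264844-6264932) lie together on the plus strand of chromosome 19, outside any other annotated gene.

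The minor strands of these hairpins, named after their values were seen because they are the partners of the listed miRNAs, went the same way. miR-215-3p had 129 reads in the 17-day embryo and 8 in the 15-day embryo, a log2 ratio of 3.71 (2.69 to 4.96). miR-192-3p had 80 reads in the 17-day embryo and 21 in the 15-day embryo, a log2 ratio of 1.63 (0.92 to 2.40). The 5p share of the mir-215 hairpin was 94.7% in the 17-day embryo and 94.9% in the 15-day embryo, so both arms were higher together. Adjusting for GC left miR-215-5p at 3.85, miR-194-5p at 1.60 and miR-192-5p at 1.11.

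miR-802-5p, a miRNA of liver, pancreas and intestine in mice, had 519 reads (198 RPM) in the 17-day embryo and 80 reads (37.5 RPM) in the 15-day embryo, after 5.32 RPM in the 11-day embryo. Its log2 ratio was 2.40 (2.06 to 2.76). Its hairpin (chr16:93369720-93369816, plus strand) overlaps no other annotated gene. Among the 12 tissue libraries of the series miR-215-5p, miR-194-5p, miR-192-5p and miR-802-5p were all highest in the one labelled smooth muscle, at 96410, 147721, 35277 and 2626 RPM. miR-215-5p had 1427 RPM in the stomach library but 4.87 RPM in kidney and 5.76 RPM in liver. The others had higher levels in those organs. miR-194-5p had 12006 RPM in kidney and 21562 RPM in liver, and miR-192-5p had 11396 RPM in kidney and 20587 RPM in liver. miR-802-5p had 236 RPM in kidney and 1735 RPM in liver. The smooth muscle miRNAs themselves were highest in the stomach library: miR-143-3p reached 174725 RPM there.

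The strands of the liver hairpin mir-122 had ratios of different size. miR-122-5p, which makes up much of the miRNA of hepatocytes, had 12092 RPM in the 17-day embryo and 11058 RPM in the 15-day embryo, a log2 ratio of 0.13 (0.10 to 0.15). Its level in the 11-day embryo was 1062 RPM. The other strand of the hairpin, miR-122-3p, had 461 RPM in the 17-day embryo and 241 RPM in the 15-day embryo, a log2 ratio of 0.94 (0.79 to 1.09). Neither was called.

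**Figure D3:**
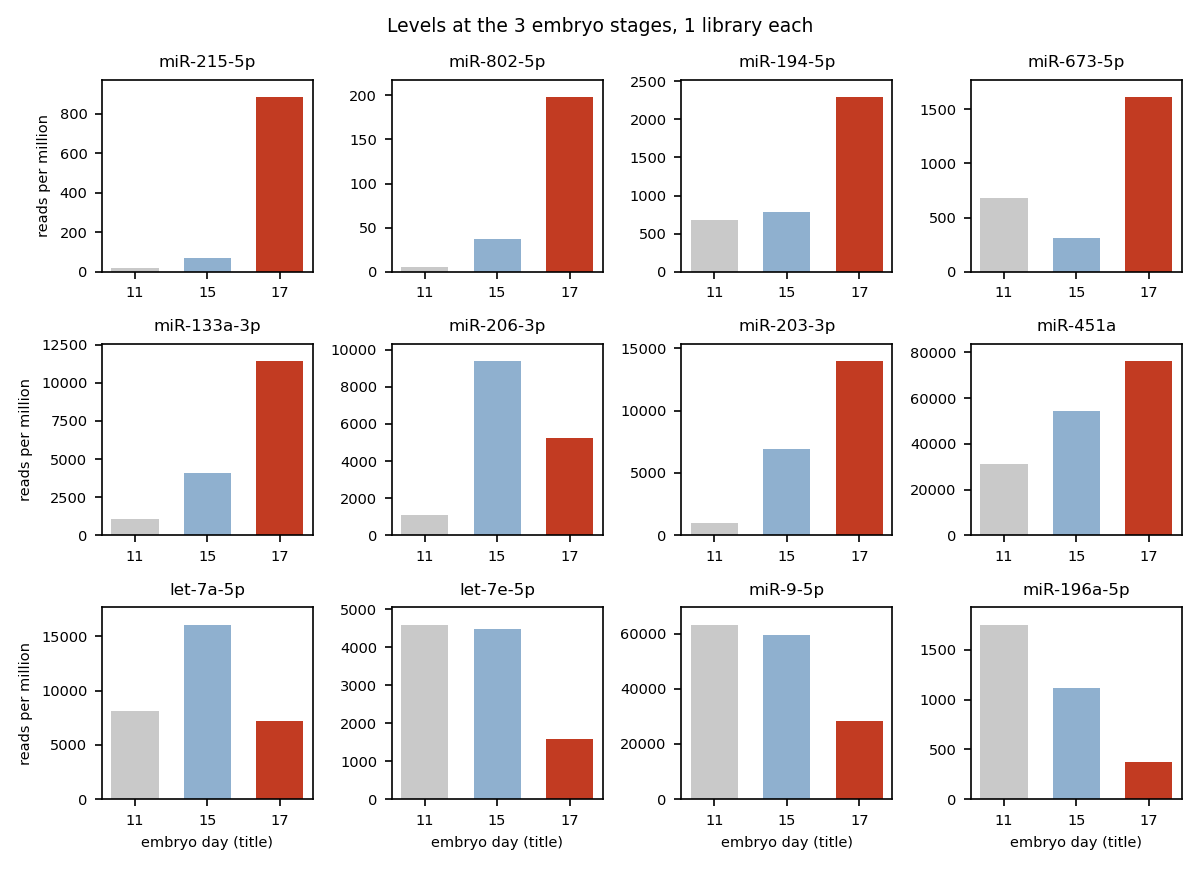
Levels in RPM of 12 miRNAs in the 11-, 15- and 17-day embryo, 1 library per bar, each panel with its own axis from 0. miR-215-5p, miR-802-5p and miR-194-5p are highest at day 17, miR-206-3p and let-7a-5p are highest at day 15, and miR-9-5p, let-7e-5p and miR-196a-5p are lowest at day 17.

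The log2 ratios of the muscle miRNAs lay on both sides of 0. Of the 10 names of skeletal and cardiac muscle 5 were higher in the 17-day embryo, where 4.48% of all names were, and none was lower, where 4.07% of all names were, with a median log2 ratio of 0.57 beside 0.06 over all names. All 5 higher names were strands of the mir-133 and mir-1 hairpins. miR-133a-3p, which represses smooth muscle genes in the mouse heart, had 11411 RPM in the 17-day embryo and 4086 RPM in the 15-day embryo, a log2 ratio of 1.48 (1.45 to 1.52). miR-133b-3p had 4996 RPM in the 17-day embryo and 2172 RPM in the 15-day embryo, a log2 ratio of 1.20 (1.15 to 1.25). The 3 others were the minor strands of their hairpins: miR-1a-1-5p (log2 ratio 1.16), miR-1a-2-5p (1.10) and miR-133a-5p (1.01, or 0.95 under TMM scaling).

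The remaining muscle names were not called. miR-206-3p, which is found in skeletal and not in cardiac muscle, had 5252 RPM in the 17-day embryo and 9384 RPM in the 15-day embryo, a log2 ratio of −0.84 (−0.87 to −0.81). It is encoded beside miR-133b: Mir206 (chr1:20679010-20679082) and Mir133b (chr1:20682769-20682887) lie on the plus strand of chromosome 1 within 10 kb of each other, both overlapping an exon of Gm28653. The log2 ratios in that cluster ran from −0.84 for miR-206-3p to 1.65 for miR-133b-5p, a minor strand named after its value was seen, a span of 2.48, the second widest of all clusters. miR-1a-3p, the abundant strand of the mir-1a hairpins and a promoter of muscle differentiation, had a log2 ratio of −0.45, with 5828 RPM in the 17-day embryo and 7955 RPM in the 15-day embryo. The miRNAs carried in introns of myosin genes had log2 ratios of 0.14 (miR-208a-3p), −0.28 (miR-208b-3p) and −0.28 (miR-499-5p). Within the muscle group the intervals of miR-133a-3p and miR-206-3p therefore lay far apart, on opposite sides of 0.

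The 4 names of the miR-378 family were higher too, where 4.48% of all names were. They form none of the lists and were named because of their values, so this count adds nothing to those values. miR-378a, which lies in the gene of the metabolic coactivator PGC-1beta and is abundant in heart and other oxidative tissues, had 7150 RPM of its 3p strand in the 17-day embryo and 3119 RPM in the 15-day embryo, a log2 ratio of 1.20 (1.16 to 1.24). Its 5p strand had a log2 ratio of 1.33, miR-378c one of 1.74 and miR-378b, which has fewer reads than the rule for names asks and was named after its value was seen, one of 2.03. Among the tissue libraries all 4 were highest in heart. miR-378a-3p, miR-378b and miR-378c are close in sequence, so the counting could have shared reads among them, and their separate values are uncertain.

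Among epithelial miRNAs the markers of stratified epithelium were nearest to the threshold. miR-203-3p, which promotes the differentiation of epidermis by repressing p63, had 13954 RPM in the 17-day embryo and 6944 RPM in the 15-day embryo, after 969 RPM in the 11-day embryo. Its log2 ratio of 1.01 (0.98 to 1.03) lay just inside the threshold, its interval reached below it, and under TMM scaling, which assumes that most miRNAs do not differ, it was 0.95. Just outside on that side was miR-24-2-5p, with a log2 ratio of 0.99. miR-205-5p, which is made in basal cells of the epidermis and other stratified epithelia, had 14063 RPM in the 17-day embryo and 8096 RPM in the 15-day embryo, a log2 ratio of 0.80 (0.77 to 0.82), and was not called. Of the 5 names of the miR-200 family, which maintains epithelial identity by repressing Zeb1 and Zeb2, none was called. Their log2 ratios ran from −0.11 for miR-200b-3p to 0.55 for miR-141-3p.

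The most abundant miRNA of the 17-day embryo was miR-451a, a miRNA of red blood cells that is cut by Argonaute 2 and not by Dicer. It made up 7.62% of the reads of the 17-day embryo and 5.42% of those of the 15-day embryo, after 3.10% in the 11-day embryo, with a log2 ratio of 0.49 (0.48 to 0.50). It lies beside Mir144 on chromosome 11, and the 3p strand of that hairpin had a log2 ratio of 0.05, with 16255 RPM in the 17-day embryo and 15666 RPM in the 15-day embryo. miR-486a-5p, another erythroid miRNA, had a log2 ratio of 0.53, and its near copy miR-486b-5p, with which it may share reads, had 0.53 as well. None of the 6 erythroid names was called. With miR-451a left out of the totals, all other log2 ratios moved up by 0.03.

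Of the 6 leukocyte names 1 was higher and 1 was lower in the 17-day embryo, where 4.48% of all names were higher and 4.07% lower. miR-150-5p, a miRNA of mature lymphocytes, had 354 reads in the 17-day embryo and 138 in the 15-day embryo, a log2 ratio of 1.06 (0.77 to 1.36). miR-155-5p, which is induced in activated immune cells, had 37 reads in the 17-day embryo and 68 in the 15-day embryo, a log2 ratio of −1.18 (−1.79 to −0.58). Both intervals reached within 2-fold, and miR-155-5p was at −0.91 after the adjustment for GC. miR-223-3p, a miRNA of granulocytes, had 1609 RPM in the 17-day embryo and 836 RPM in the 15-day embryo, a log2 ratio of 0.94, which was 1.09 after the adjustment for GC. The pan-leukocyte miR-142a-3p had 8144 RPM in the 17-day embryo and 7993 RPM in the 15-day embryo, a log2 ratio of 0.03.

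The imprinted Dlk1-Dio3 region of chromosome 12 encodes many miRNAs that are expressed from the maternal chromosome. Its proximal hairpins lie in the noncoding gene Meg3 and antisense to Rtl1, and the distal ones in the noncoding transcript Mirg. In the proximal group 2 of 21 names, both of them strands of the mir-673 hairpin, were higher, where 4.48% of all names were, and none was lower, where 4.07% were. Of its 21 log2 ratios 20 lay above 0, and the median was 0.39. In the Mirg group none of 30 names was called, 15 lay above 0 and 15 below, and the median was 0.03. Over all names 270 of 491 lay above 0. The sum of the proximal names was 6.41% of the reads of the 17-day embryo and 4.38% of those of the 15-day embryo, whereas that of the Mirg names was 6.72% in the 17-day embryo and 6.83% in the 15-day embryo. The median GC-adjusted log2 ratio was 0.26 for the proximal names and 0.06 for the 27 Mirg names with a sequence.

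A single hairpin of that region stood apart. miR-673-5p had 4229 reads (1611 RPM) in the 17-day embryo and 669 reads (313 RPM) in the 15-day embryo, with 676 RPM in the 11-day embryo. Its level was thus lowest in the middle stage, and its log2 ratio was 2.36 (2.24 to 2.48), or 2.14 after the adjustment for GC. Its partner miR-673-3p had 131 reads in the 17-day embryo and 47 in the 15-day embryo, a log2 ratio of 1.18 (0.69 to 1.69), which was 0.83, under the threshold, after the adjustment. The hairpin Mir673 (chr12:109571990-109572080, plus strand) belongs to a cluster of 11 hairpins spanning chr12:109563692-109595388, and the other names of that cluster ran from −0.28 for miR-493-5p to 0.82 for miR-127-3p. miR-127-3p, which is antisense to Rtl1 and represses it, was the most abundant of them, with 25391 RPM in the 17-day embryo and 14421 RPM in the 15-day embryo.

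**Figure D4:**
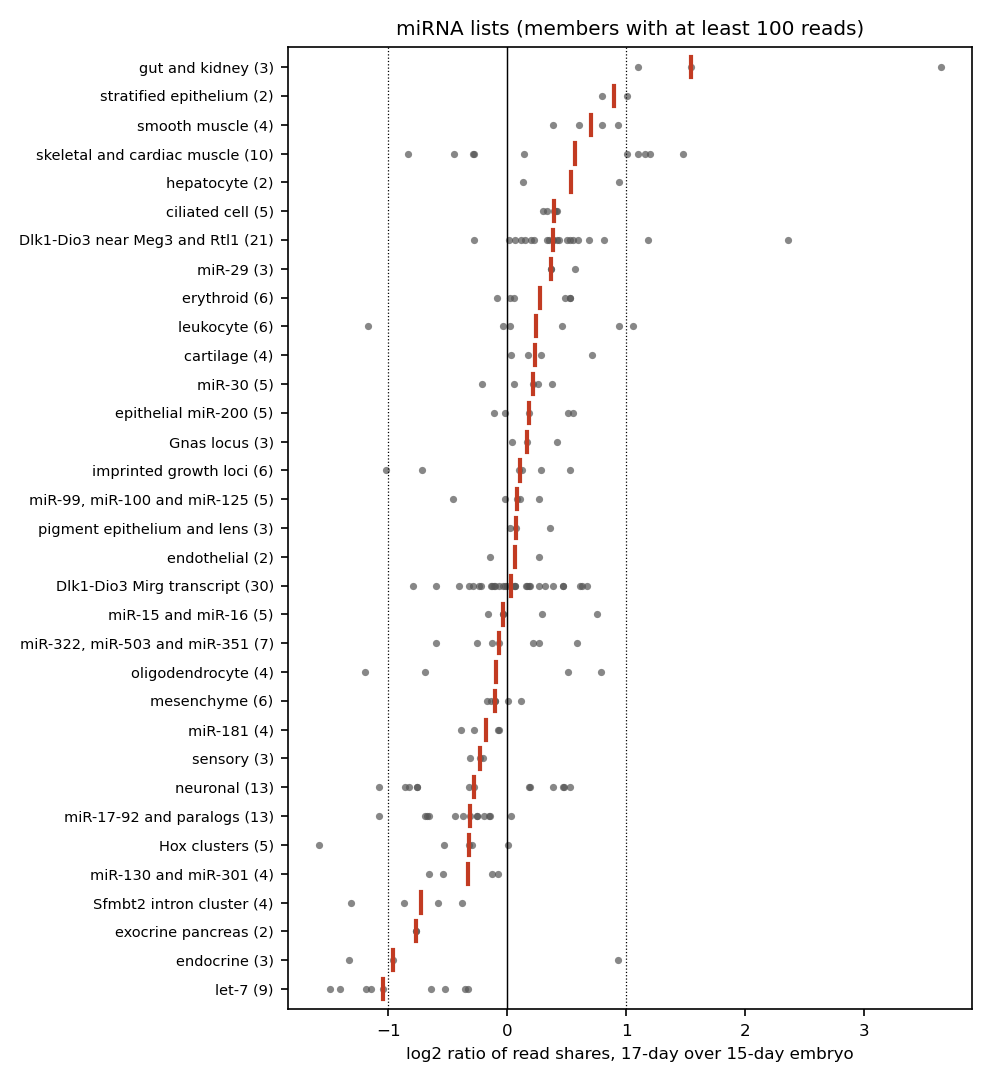
Log2 ratio of read shares, 17-day over 15-day embryo (horizontal), for the members of each miRNA list with at least 100 reads summed over both embryos (points; their number in parentheses), with the median as a red bar and 2-fold marked by dotted lines. The gut and kidney list has the highest median (1.55) and the let-7 list the lowest (−1.05).

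Most members of the let-7 family were lower in the 17-day embryo. let-7 miRNAs repress genes of early development such as Lin28a and Hmga2, and they accumulate as cells differentiate. Of 9 members 5 were lower, where 4.07% of all names were, and all 9 lay below 0, with a median log2 ratio of −1.05. Together they made up 4.30% of the reads of the 17-day embryo and 7.79% of those of the 15-day embryo, with 3.52% in the 11-day embryo. The family was therefore highest in the middle stage.

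let-7e-5p had 1593 RPM in the 17-day embryo and 4488 RPM in the 15-day embryo, the lowest log2 ratio of the family at −1.49 (−1.55 to −1.44). miR-98-5p, a let-7 member by sequence, had 443 RPM in the 17-day embryo and 1176 RPM in the 15-day embryo, a log2 ratio of −1.41. The other called members were let-7f-5p at −1.19, let-7a-5p at −1.15 and let-7c-5p at −1.05. let-7a-5p, the most abundant in the 15-day embryo, had 7238 RPM in the 17-day embryo and 16050 RPM in the 15-day embryo. The members that were not called had log2 ratios of −0.64 (let-7g-5p), −0.53 (let-7i-5p), −0.36 (let-7d-5p) and −0.33 (let-7b-5p).

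Members of 1 locus differed. let-7a-1, let-7f-1 and let-7d share a cluster on chromosome 13, yet let-7a-5p lay at −1.15 and let-7d-5p at −0.36, although let-7a-5p and let-7f-5p also come from other loci. let-7e-5p shares its cluster on chromosome 17 (chr17:17830352-17830879, within Spaca6) with miR-125a-5p, which had a log2 ratio of 0.27. Members that differ by 1 or 2 bases can exchange reads when mismatches are allowed, and how the counting treated them is not given in the sources used here.

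The minor strands of the let-7 hairpins, also named after their values were seen, did not show ratios of this size. let-7e-3p had 66 reads in the 17-day embryo and 58 in the 15-day embryo, a log2 ratio of −0.11 (−0.64 to 0.42). miR-98-3p had a log2 ratio of −0.34 (−0.82 to 0.15) and let-7a-1-3p one of −0.19 (−0.37 to −0.01). let-7d-3p had 2278 reads in the 17-day embryo and 1400 in the 15-day embryo, a log2 ratio of 0.40 (0.31 to 0.50), opposite in sign to its 5p partner. Also above 0 were let-7g-3p (0.34), let-7b-3p (0.29), let-7f-1-3p (0.29), let-7i-3p (0.12) and let-7f-2-3p (0.09), whereas let-7c-2-3p lay at −0.20.

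The 5p strands of the 9 let-7 members are poor in GC, at 31.8% to 45.5%, so the relation with composition touches them. After the adjustment for GC all 9 still lay below 0, between −1.35 and −0.21, but only let-7e-5p and miR-98-5p stayed past 2-fold. let-7d-5p and let-7e-5p have the same GC content, 40.9%, and log2 ratios of −0.36 and −1.49. Of the minor strands, let-7g-3p and let-7i-3p have 59.1% GC, let-7e-3p 54.5%, and let-7b-3p and let-7d-3p 50%. miR-98-3p has 31.8%, the same as miR-98-5p.

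Of the 13 neuronal names 1 was lower, where 4.07% of all names were, and none was higher, where 4.48% were, so the count is near the share over all names. miR-9-5p, which is expressed in neural progenitors and neurons, was the most abundant miRNA of the 15-day embryo. It made up 2.83% of the reads of the 17-day embryo and 5.97% of those of the 15-day embryo, with 6.32% in the 11-day embryo. Its share differed by −3.14 points between the stages, the largest difference of share among the 491 names. Its log2 ratio was −1.08 (−1.09 to −1.06), and −0.81 after the adjustment for GC, which ends the call. miR-9-3p, the partner strand, had a log2 ratio of −0.86 (−0.90 to −0.83).

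Summed over the list, the neuronal names made up 5.01% of the reads of the 17-day embryo and 8.88% of those of the 15-day embryo, most of it miR-9. The others lay on both sides of 0. miR-124-3p, a defining miRNA of differentiated neurons, had 7811 RPM in the 17-day embryo and 9497 RPM in the 15-day embryo, a log2 ratio of −0.28 (−0.31 to −0.25). miR-137-3p (−0.82), miR-153-3p (−0.76) and miR-218-5p (−0.76), the last of which is enriched in motor neurons, were below 0. miR-128-3p (0.48), miR-132-3p (0.47), which is induced by neuronal activity, and miR-138-5p (0.18) were above 0. The median log2 ratio of the 13 names was −0.28. The 11 names with a sequence, which do not include the miR-124 strands, had a median of 0.18 before and 0.01 after the adjustment for GC.

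Of the 3 endocrine names 1 was lower, where 4.07% of all names were, and none was higher, where 4.48% were. In this list miR-375-3p lay above 0, at 0.93. The lower name was miR-7a-5p, which is found in brain and endocrine cells. It had 947 RPM in the 17-day embryo and 2380 RPM in the 15-day embryo, a log2 ratio of −1.33 (−1.40 to −1.26), and stayed past 2-fold after the adjustment for GC at −1.06. Its relative miR-7b-5p, with the same seed, lay just outside the threshold at −0.96, and at −1.02 under TMM scaling. Outside that list, miR-135a-5p had a log2 ratio of −1.05 and miR-340-5p one of −1.21, which became −0.69 and −0.80 after the adjustment. miR-219a-2-3p, a miRNA of myelinating oligodendrocytes that was highest in the spinal cord at 5516 RPM, had 30.1 RPM in the 17-day embryo and 68.8 RPM in the 15-day embryo, against 603 RPM in the 11-day embryo. Its log2 ratio was −1.19. Of the 4 oligodendrocyte names 1 was lower, where 4.07% of all names were, and none was higher, where 4.48% were. In that list 2 names lay above 0 and 2 below. Those above were miR-338-5p (0.79) and miR-338-3p (0.51).

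The Hox clusters pattern the body axis, and 5 names encoded in or beside them were measured. miR-196a-5p, which represses Hoxb8 and other Hox genes of the trunk, had 374 RPM in the 17-day embryo and 1119 RPM in the 15-day embryo, after 1752 RPM in the 11-day embryo. Its log2 ratio was −1.58 (−1.69 to −1.47) and −1.44 after the adjustment for GC, the lowest of all names with at least 500 reads. It comes from Mir196a-1 (chr11:96265164-96265265) and Mir196a-2 (chr15:102973350-102973434), and Mir196a-2 lies in an intron of Hoxc5. miR-196b-5p, with the same seed, had a log2 ratio of −0.53, miR-10a-5p one of −0.30, miR-10b-5p one of −0.32 and miR-615-3p one of 0.01.

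The miR-17-92 cluster and its paralogs, which promote proliferation, had log2 ratios mostly below 0. Of 13 names 12 lay below 0, with a median of −0.31, but 1 passed 2-fold, where 4.07% of all names were lower: miR-18b-5p, with 47 reads in the 17-day embryo and 81 in the 15-day embryo, at −1.08 before and −0.99 after the adjustment for GC. Together they made up 4.88% of the reads of the 17-day embryo and 6.18% of those of the 15-day embryo, after 12.4% in the 11-day embryo. miR-335-5p, which lies in an intron of the imprinted gene Mest, had 4191 RPM in the 17-day embryo and 8509 RPM in the 15-day embryo. Its log2 ratio of −1.02 (−1.06 to −0.99) was just inside the threshold. It was −0.99 with miR-451a left out of the totals, which ends the call, and −0.67 after the adjustment for GC. Of the other names of imprinted growth loci, miR-483-3p from Igf2 had a log2 ratio of 0.53 and miR-675-3p from H19 one of 0.28, and neither was called.

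Several abundant groups had no called member. The mesenchymal miR-199 and miR-214 names had log2 ratios from −0.17 to 0.11. miR-199a-3p and miR-199b-3p have the same mature sequence, so the same reads may stand under both names. With miR-199b-3p left out of the group but kept in the totals, the group made up 7.07% of the counts of the 17-day embryo and 7.33% of those of the 15-day embryo. With it left out of the totals too, the group made up 7.33% in the 17-day embryo and 7.62% in the 15-day embryo. The 5 names of the miR-99, miR-100 and miR-125 families had a median of 0.08, and the 5 of the miR-30 family one of 0.22. The 4 smooth muscle names miR-143 and miR-145a all lay above 0, between 0.39 and 0.93, and none was called. The same held for the 4 cartilage names, where miR-140-3p, which is needed for normal growth plates, had a log2 ratio of 0.29 and miR-455-3p one of 0.72. In the endothelial pair miR-126a-3p lay at 0.27 and miR-126a-5p at −0.14. miR-375-3p, of pancreatic islets and other endocrine cells, was also not called, although miR-7a-5p of the same list was. miR-375-3p had 1010 reads in the 17-day embryo and 430 in the 15-day embryo, a log2 ratio of 0.93.

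The share of each arm was also compared. The 5p share is the reads of the 5p strand as a percent of the reads of both strands of a hairpin. For most hairpins it was nearly the same at both stages, with a median absolute difference of 0.82 points over 305 hairpins. It was at least 5 points higher in the 17-day embryo for 12 hairpins (3.93%) and at least 5 points lower for 28 (9.18%). For 23 of these 40 the 95% counting interval of the difference did not include 0, 6 with more 5p and 17 with less. Summed over all hairpins with both arms named, the 5p strands held 43.7% of the reads in the 17-day embryo and 49.3% in the 15-day embryo, with 54.5% in the 11-day embryo. This sum also changes with the level of each hairpin, so it is not a measure of arm usage alone. mir-9, 86.0% 5p in the 17-day and 87.7% in the 15-day embryo, had 86299 reads in the 17-day and 145316 in the 15-day embryo. mir-127, 7.54% and 8.89% 5p in the same order, had 72091 and 33799 reads.

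**Figure D5:**
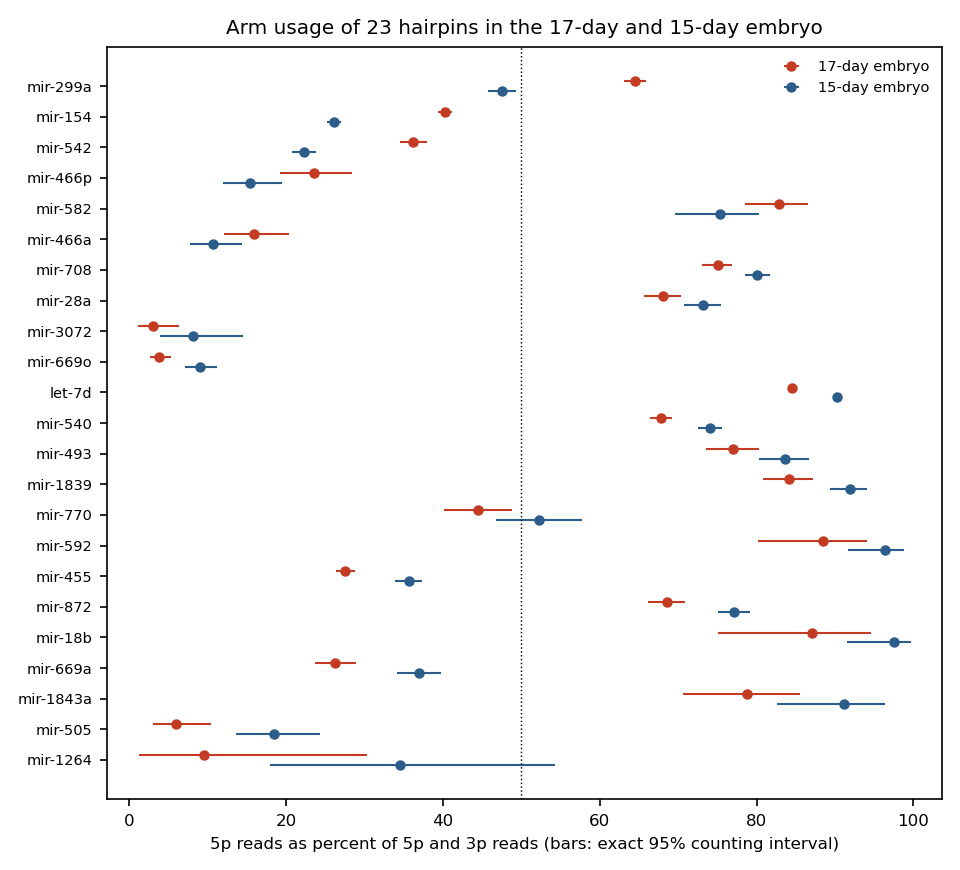
5p share in percent (horizontal) of the 23 hairpins that differed by at least 5 points with a counting interval of the difference without 0, in the 17-day embryo (red) and the 15-day embryo (blue), 1 library each; bars are exact 95% counting intervals and the dotted line marks 50%. Only mir-299a and mir-770 lie on different sides of 50% at the 2 stages, and the 15-day interval of mir-770 includes 50%.

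The 5p share lay on different sides of 50% at the 2 stages in 2 hairpins, both of the Dlk1-Dio3 region, and for only mir-299a did both intervals leave out 50%. For mir-299a the 5p share was 64.5% (63.1% to 65.9%) in the 17-day embryo and 47.5% (45.8% to 49.3%) in the 15-day embryo. The difference was 17.0 points (14.8 to 19.2), and the 11-day embryo had 58.1%. The strand miR-299a-5p had a log2 ratio of 0.67 and miR-299a-3p one of −0.33. Mir299a (chr12:109710638-109710700, plus strand) covers Mir299b (chr12:109710645-109710693, minus strand), and the 5p sequences printed above are nearly the same. miR-299b-5p had 118 reads in the 17-day embryo and 61 in the 15-day embryo, and miR-299a-5p had 2999 in the 17-day embryo and 1534 in the 15-day embryo. How reads were divided between them is not given in the sources used here, so the mir-299a shares are uncertain. For mir-770, in an exon of Meg3, the 5p share was 44.5% (40.2% to 48.8%) in the 17-day embryo and 52.3% (46.7% to 57.7%) in the 15-day embryo, a difference of −7.79 points (−14.5 to −0.95), on 533 reads in the 17-day embryo and 333 in the 15-day embryo.

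Among hairpins that kept their dominant arm, the largest well-counted differences were in mir-154 and mir-542. The 5p share of mir-154, a hairpin in an intron of Mirg, was 40.3% in the 17-day embryo and 26.1% in the 15-day embryo, a difference of 14.1 points (12.9 to 15.4), with 25.2% in the 11-day embryo. miR-154-5p had a log2 ratio of 0.61 and miR-154-3p one of −0.32. The 5p share of mir-542, on the X chromosome, was 36.2% in the 17-day embryo and 22.3% in the 15-day embryo, a difference of 14.0 points (11.7 to 16.2). In both hairpins the 5p strand is the richer in GC, by 13.6 points in mir-154 and 22.7 points in mir-542. In mir-299a the GC content of the 5p strand minus that of the 3p strand was −4.55 points.

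In the other direction, the 5p share of mir-505 was 5.95% in the 17-day embryo and 18.5% in the 15-day embryo, a difference of −12.6 points (−18.8 to −6.21). That of mir-872 was 68.6% in the 17-day embryo and 77.1% in the 15-day embryo, and that of mir-455, from an intron of the collagen gene Col27a1, 27.6% in the 17-day embryo and 35.6% in the 15-day embryo. The best-counted of these hairpins was let-7d, with 84.6% in the 17-day embryo and 90.3% in the 15-day embryo, a difference of −5.71 points (−6.46 to −4.95). The GC content of the 5p strand minus that of the 3p strand was −9.09 points in let-7d, −11.7 in mir-455 and −7.36 in mir-872. In mir-505 it was 2.37 points. mir-1264 had the lowest difference, −25.0 points, but on 21 reads in the 17-day embryo and 29 in the 15-day embryo. mir-324, whose arm usage is known to differ between tissues, had 63.1% in the 17-day embryo and 61.2% in the 15-day embryo, a difference of 1.90 points (−0.85 to 4.67).

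Over 123 hairpins with a sequence and enough reads for both arms, the difference of the log2 ratios of the 5p and 3p strands had a Pearson r of 0.39 with the difference of their GC contents. Both strands of a hairpin come from 1 precursor and, over 148 hairpins, the log2 ratio of the 5p strand had an r of 0.68 with that of the 3p strand. Both values are descriptions over hairpins of the same 2 libraries. The part of composition in the arm differences was not tested.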

How the data were processed

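The authors deposited a count of reads per mature miRNA name for each library, with no normalization. Per the labels' protocols, synthetic spike-in RNAs were added before gel selection and AQ-seq, but every deposited count belongs to a mouse miRNA name, so all values are relative shares. The submitters' processing notes name bcl2fastq 1.8.4, cutadapt, BWA, bedtools and the build mm10. What each tool did, which miRNA annotation was used and how reads with several matches were treated is not given in the sources used here.

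A name absent from a library was taken as 0, and the species prefix was dropped. Shares were taken of all counted reads and printed as percent or RPM, without scaling by length, since mature miRNAs are of nearly equal length. With 1 library per stage no test was made. Ratios have exact Clopper-Pearson intervals from the split of the reads between the libraries, 5p shares have exact intervals, and differences of shares Newcombe intervals, at 95%. The intervals were tested on simulated counts that had counting error only, the error they assume. That test says nothing about PCR or the spread between embryos. Tools were Python 3.11.15, numpy 2.4.6, scipy 1.17.1, pandas 2.3.3 and matplotlib 3.10.9, and edgeR 4.0.16 in R 4.3.3 for TMM scaling only.

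The comparison and the 34 miRNA lists were chosen with earlier results of these data known. Named miRNAs are members of the lists, the 15 furthest past 2-fold in each direction with at least 500 reads, the 10 largest shares in each embryo, the 10 largest changes of share, and hairpins with the 10 largest differences in each direction or a changed dominant arm; exceptions are marked. Alternatives were other scalings, read minimums and thresholds. Sequences and hairpin positions are from RefSeq (GRCm38.p6), and overlapping genes from GENCODE M21, on the same build as mm10. Clusters are hairpins within 10 kb on 1 strand.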

Additional observations from a re-analysis of the deposited data

How the results depend on the processing

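No paired analysis was possible because each stage is 1 library, and no replicate could be left out. The count of 42 miRNAs past 2-fold was 131 at a fold of 1.5, 26 with at least 400 reads, 306 with no minimum and 1 read added to each count, and 24 where the whole counting interval had to lie past 2-fold. Over the 413 names with a sequence it was 33 without and 24 with the adjustment for GC content; these settings, the merging of identical counts and the omission of Sfmbt2 hairpins were chosen after seeing the data. It stayed between 40 and 54 under TMM scaling, median-of-ratios scaling, miR-451a left out, a minimum of 40 reads and identical counts merged. These 3 scalings moved all log2 ratios by −0.06, −0.03 and 0.03, and no called name changed direction under them or under the GC adjustment. The count of 40 hairpins past 5 points was 22 with at least 100 reads in both embryos, 23 where the interval also excluded 0, and 102 where it excluded 0 at any size. It was 31 with at least 50 reads, 31 without the Sfmbt2 hairpins and 47 by a 2-fold change of the arm odds. The spread between embryos of 1 stage is unknown, so small differences with narrow counting intervals may lie within it.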

Other observations

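The miRNAs of early embryonic and pluripotent cells, the miR-290 to miR-295 and miR-302 to miR-367 clusters, were nearly gone at both stages. The 11 names summed to 0.00328% of the reads of the 17-day embryo and 0.00716% of those of the 15-day embryo, after 0.313% in the 11-day embryo. None reached 100 reads over both embryos. miR-295-3p, the most abundant of them, had 24 reads in the 17-day embryo and 35 in the 15-day embryo, against 874 RPM in the 11-day embryo. The large Sfmbt2 intron cluster is a rodent-specific group of near-identical hairpins whose separate counts are uncertain. Its list here holds 6 names and leaves out other names of the cluster. The 6 listed names summed to 0.0482% of the reads of the 17-day embryo and 0.0804% of those of the 15-day embryo, after 0.389% in the 11-day embryo. All 4 listed names with enough reads lay below 0. Of these 4, 1 was lower, where 4.07% of all names were: miR-669c-5p at −1.31 (−1.60 to −1.03).

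miRNAs of motile ciliated cells lay above 0 without a call. miR-449a-5p had 1066 RPM in the 17-day embryo and 865 RPM in the 15-day embryo, after 274 RPM in the 11-day embryo, a log2 ratio of 0.30 (0.22 to 0.39), and the 5 names of this list with enough reads ran from 0.30 to 0.42. The sensory names miR-183-5p, miR-182-5p and miR-96-5p ran from −0.31 to −0.20. The exocrine pancreas pair miR-216a-5p and miR-217-5p, encoded within 10 kb of each other, both had a log2 ratio of −0.77, on 99 and 47 reads in the 17-day embryo and 137 and 65 reads in the 15-day embryo. miR-216b-5p had 31 reads in the 17-day embryo and 68 in the 15-day embryo, just under the minimum.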
